A study of Mus musculus with 4 samples.

Results

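The effect of high glucose on IMS32 Schwann cells deprived of exogenous pyruvate was examined at the level of the transcriptome by comparing the array of the cells kept in 15 mM glucose without pyruvate, [Glc 15 mM/Pyr (-)], with the array of the cells kept in 5 mM glucose without pyruvate, [Glc 5 mM/Pyr (-)]. IMS32 is a spontaneously immortalised line derived from Schwann cells of adult mice, and it is a single line, so nothing here shows how primary cells or nerves behave. Both cultures were exposed to their medium, DMEM with 5% serum, for 1 h before RNA was extracted, and the only stated difference between them was the glucose concentration. The reference pair consisted of cultures that received 1 mM pyruvate for the same 1 h at either glucose concentration, named [Glc 5 mM/Pyr (+)] at the lower one and [Glc 15 mM/Pyr (+)] at the higher one. Each of the 4 conditions was represented by 1 array from 1 culture, so no test between conditions was possible and no p-value is given. A gene was included when at least 1 of its probes was well above background on both arrays without pyruvate. This held for 28211 of the 39429 probes (71.5%) and for 17942 genes. The array carried 31093 gene names, but this count also holds names that are only probe or transcript identifiers. Such names were not counted as genes, so 17942 is not a share of 31093. Most of the description concerns the 11329 genes with a processed signal over 200 on either array, because signals below that level were noisier.

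Schwann cells ensheath the axons of peripheral nerves and supply them with metabolites and growth factors. Glucose entering the cell is converted to pyruvate by glycolysis, and pyruvate then feeds the TCA cycle in the mitochondria, so a medium without pyruvate leaves glycolysis as the main source of that substrate. Immediate-early genes, such as Fos and Egr1, are transcribed within minutes of a growth factor or stress signal without new protein synthesis. The transcription factor MondoA and its relative ChREBP (Mlxipl) respond to glucose phosphates, and Txnip, an inhibitor of thioredoxin and of glucose uptake, is their best known target.

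The arrays were of similar quality. The 75th percentile of the processed signal lay between 1597 and 1788, between 72.2% and 77.0% of the probes were well above background, and no probe was saturated. Of the 399 probes printed 10 times on each array, 289 were measured, and the median SD among the spots of a probe was 0.061 to 0.066 on the log2 scale over a signal of 200 and 0.155 to 0.176 at dimmer signals. From these spots, a difference between 2 arrays had a spread of 0.09 for single-spot probes over 200 and of 0.25 for dimmer ones. Only printing and scanning enter this spread, whereas the variation among cultures was not measured by the design. All 16 Schwann cell markers were well above background on all 4 arrays. Their signals summed to 120337 at 5 mM and 101208 at 15 mM without pyruvate, and to 127353 and 114255 with it. All signals and sums in this paragraph are before scaling, so they also carry the brightness of each array. The 75th percentile was 1740 at 5 mM and 1632 at 15 mM without pyruvate, and 1788 and 1597 with it. Sox10, the transcription factor that defines the lineage, had a signal of 5667 at 5 mM and 5409 at 15 mM glucose, whereas the neuregulin receptor gene Erbb3 (21.8 and 15.6) was near the floor of the array. Markers of other cells were mixed, taking the brightest probe of each gene without pyruvate at 5 mM and then 15 mM glucose. Of the macrophage genes, Ptprc (29.6 and 23.4) and Adgre1 (33.5 and 32.6) were dim, whereas Cd68 (1258 and 1817), Csf1r (1055 and 1041), Itgam (11908 and 7997) and Aif1 (286 and 259) were detected. Of the neuron genes, Syt1 and Nefm were not well above background on any array, and Rbfox3 (20.2 and 42.7) and Nefl (24.5 and 53.7) were dim. Snap25 (8354 and 5470) and Tubb3 (383 and 423) were detected. The endothelial gene Cdh5 was not well above background on any array, whereas Kdr (5358 and 5020) was detected, and the fibroblast collagen gene Col1a2 was bright (90986 and 85784). The 6 macrophage markers summed to 14569 and 11170, against 15869 and 10854 with pyruvate, and the 6 neuron markers to 8791 and 5995, against 9718 and 6451. Those sums are mostly Itgam and Snap25, whose probes share runs of bases with probes of many other genes. The 8 fibroblast markers summed to 105138 and 98412, against 104639 and 99153 with pyruvate, and the 5 endothelial markers to 5564 and 5158, against 5736 and 4259. The part of such cells in the differences was not tested. In bulk RNA, fewer cells of a type and less RNA per cell cannot be told apart.

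In all of the following, a difference is the log2 of the 15 mM signal minus the log2 of the 5 mM signal after each array was scaled to its own 75th percentile, whereas the signals are quoted as processed by the scanner software, before scaling. Without pyruvate, 676 of the 28211 probes (2.40%) differed by 2-fold or more, 266 being higher and 410 lower at 15 mM glucose. The dim probes contributed most of them. Of the 10642 probes up to a signal of 200, 4.75% passed 2-fold with an SD of 0.45 over all differences, compared with 0.968% of the 17569 brighter probes with an SD of 0.26. Among the 11329 genes over 200, 106 passed 2-fold (0.936%), of which 34 were higher (0.300%) and 72 were lower (0.636%) at 15 mM glucose. At 1.5-fold, 105 genes were higher (0.927%) and 220 were lower (1.94%). The genes with pyruvate spread less: only 2 of 11339 genes over 200 (0.0176%) passed 2-fold, namely Pde5a, a phosphodiesterase that degrades cyclic GMP, at -1.08 and 4930584F24Rik at -2.38, both named after their values were seen. The number of calls depended on the background correction, since a normexp correction left 113 probes and 67 genes over 200 past 2-fold without pyruvate. The SD of all differences over 200 was 0.25 without pyruvate and 0.14 with it, and the medians were 0.04 and 0.00.

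**Figure D1:**
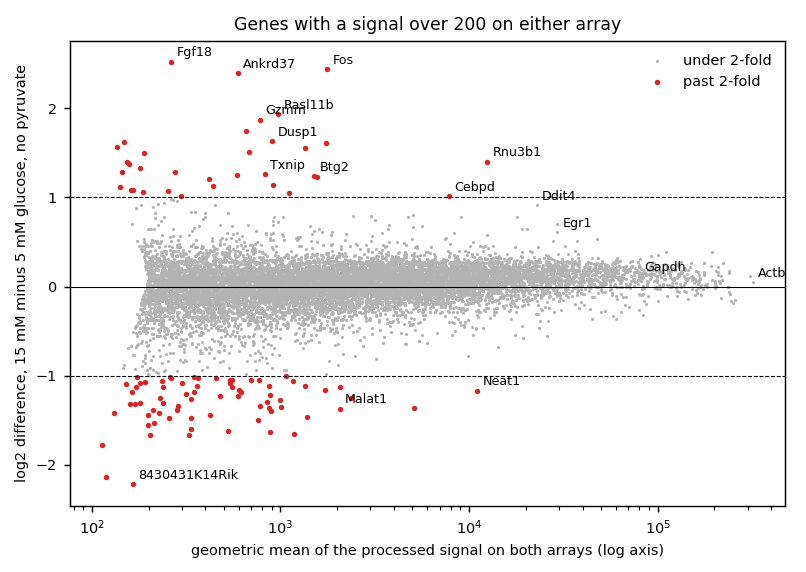
Difference between 15 mM and 5 mM glucose without pyruvate (log2) against the geometric mean of the processed signal on both arrays (log scale), 1 point for each of the 11329 genes with a signal over 200 on either array. Red points mark the 34 genes above and the 72 genes below the dashed 2-fold lines, most of them at the dimmer end of the axis.

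The 2-fold line cuts a continuous distribution. Just inside it lay Cebpd and 9130230N09Rik (both 1.01) and LOC552909 (-1.01), and just outside it Arl4d (0.97), Scn8a (0.98) and 4932439E07Rik (-0.98). None of the 106 genes rested on a probe that shared a run of 20 bases with a probe of another gene name. Of the 10 genes with several measured probes 3 had every probe past 2-fold in 1 direction. The 34 higher genes had a signal at 5 mM glucose between 81.3 and 7941 (median 296) and the 72 lower genes between 217 and 17093 (median 588).

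Fos was among the genes with the largest increment at 15 mM glucose. It encodes the c-Fos subunit of the AP-1 transcription factor. Its signal was 782 at 5 mM and 3980 at 15 mM glucose without pyruvate, against 1070 and 623 with pyruvate, so that [Glc 15 mM/Pyr (-)] was the highest of the 4 arrays and [Glc 15 mM/Pyr (+)] the lowest. The difference without pyruvate was 2.44, or 5.43-fold, with a standard error of 0.03 over the 10 spots of its probe on each array, and that with pyruvate was -0.62. Dusp1, a phosphatase that switches off MAP kinases and is itself induced by them, had 529 and 1533 without pyruvate (difference 1.63, 3.09-fold) and 528 and 419.8 with it (-0.17). Btg2, an antiproliferative immediate-early gene and p53 target, had 1011 and 2247 without pyruvate (1.24, 2.37-fold) and 861 and 804 with it (0.06). For all 3 genes the array at 15 mM glucose without pyruvate was the highest of the 4, and the other 3 arrays lay within a narrower range.

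The promoters of these genes are shown because all carry the core of the cyclic AMP response element, TGACGT, through which CREB and ATF proteins are known to act on immediate-early genes. Each run gives the 250 bases before the transcription start in RefSeq on GRCm38.p6, 5′ to 3′ on the strand of the gene, with the matches in capitals. The Fos window is chr12:85473640-85473889 on the plus strand, with its match starting at -66. The Dusp1 window is chr17:26508473-26508722 on the minus strand, with matches at -191, -143 and -141, the last pair overlapping on opposite strands. The Btg2 window is chr1:134079156-134079405 on the minus strand, with an overlapping pair at -166 and -164.
Fos: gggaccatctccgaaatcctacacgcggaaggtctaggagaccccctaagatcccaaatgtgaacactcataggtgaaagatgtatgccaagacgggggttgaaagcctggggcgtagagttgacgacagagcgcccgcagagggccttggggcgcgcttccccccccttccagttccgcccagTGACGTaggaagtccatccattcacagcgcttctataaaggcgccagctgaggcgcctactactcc
Dusp1: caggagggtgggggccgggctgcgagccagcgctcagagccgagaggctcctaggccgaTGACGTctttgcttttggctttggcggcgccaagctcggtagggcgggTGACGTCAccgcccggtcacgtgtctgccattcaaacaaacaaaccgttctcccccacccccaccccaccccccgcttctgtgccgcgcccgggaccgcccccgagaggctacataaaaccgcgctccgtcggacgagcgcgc
Btg2: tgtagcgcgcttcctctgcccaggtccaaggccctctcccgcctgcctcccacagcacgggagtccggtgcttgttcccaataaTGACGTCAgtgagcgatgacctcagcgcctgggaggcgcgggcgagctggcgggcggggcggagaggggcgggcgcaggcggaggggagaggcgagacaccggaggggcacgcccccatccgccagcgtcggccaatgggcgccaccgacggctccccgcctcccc

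The letters TGACGT were searched on both strands and were found in 1567 of 21254 protein-coding promoters of that length (7.37%) and in 1019 of the 8524 genes over 200 that had a promoter in the table. They occurred in 4 of the 16 higher genes and in 2 of the 7 lower genes with a promoter in the table. A match is a run of letters and no measurement of a bound factor.

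**Figure D2:**
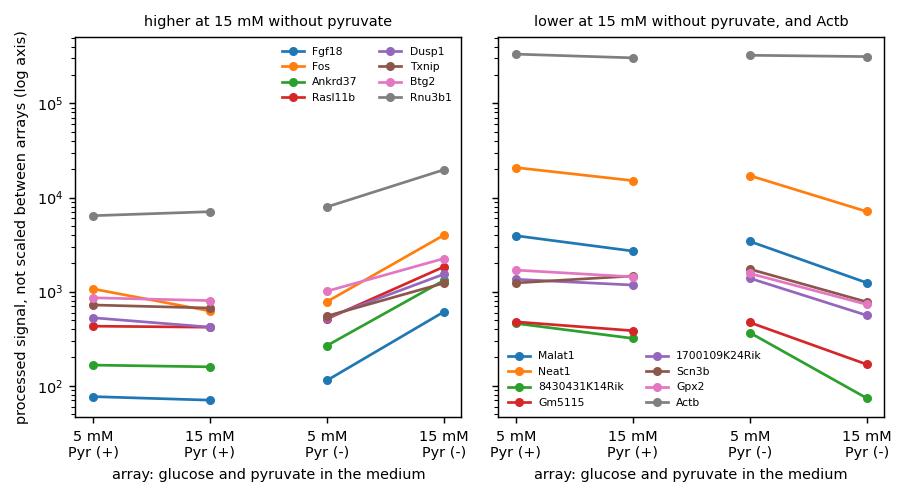
Processed signal before scaling (log scale) of selected genes on each of the 4 arrays, 1 point for each gene and array, with lines joining 5 mM to 15 mM glucose within a pair. In the left panel (Fos, Dusp1, Txnip and others) the point of 15 mM glucose without pyruvate is the highest of the 4, and in the right panel (Malat1, Neat1 and others) it is the lowest, except for the reference gene Actb.

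The further immediate-early transcription factors differed by less. Of the 19 transcription factors of this class with a signal over 200, 16 were above 0, where 58.9% of all genes over 200 were, and Fosl1, Fosb, Nr4a2, Myc and Egr2 among the 16 lay within the spot spread of 0.09. The median was 0.18 compared with 0.04 over all genes, and 2 passed 2-fold, Fos and Klf2. Klf2, a zinc finger factor known from endothelial cells, went from 1057 to 2322 (1.23) without pyruvate and from 1283 to 1053 (-0.12) with it. Egr1, a zinc finger factor induced by growth factors, went from 24462 to 35013 (0.61) without pyruvate but from 32468 to 21853 (-0.41) with it. Atf3 (0.59), Klf4 (0.58) and Jun (0.53) were higher by less than 2-fold, Fosb differed by 0.01, and Fosl2 (-0.49) and Klf10 (-0.38) were lower. With pyruvate the median of the 19 was -0.09, and 13 of them were above 0 without pyruvate and below 0 with it.

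The immediate-early genes that are not transcription factors showed a larger median. Of 20 genes, all over 200, 17 were above 0, where 58.9% of all genes over 200 were. Of the 20, 16 were genes of at most 7.58 kb, a length at which 85.4% of protein-coding genes over 200 were above 0. The median was 0.51, and 2 passed 2-fold and 8 passed 1.5-fold. Those past 2-fold were Btg2 and Ier2, a short nuclear immediate-early gene, which went from 308 to 630.3 (1.13, or 0.93 under spike-in scaling) without pyruvate and from 372 to 309 (-0.10) with it. Just short of it were Arc, a synaptic protein that traffics receptors (209 and 381, difference 0.96), and Zfp36, which encodes an RNA-binding protein that shortens the life of AU-rich mRNAs (159 and 278, 0.89). The other members past 1.5-fold were Ier5 (0.78), Ier3 (0.75), Btg1 (0.67) and Plk3 (0.59). The members below 0 were Cyr61 (-0.24), Ctgf (-0.15) and Errfi1 (-0.04). With pyruvate the median of the 20 was -0.11, and 12 of them were above 0 without pyruvate and below 0 with it.

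The genes of MAP kinase feedback did not move as a block. Of the 11 with a signal over 200, 6 were higher and 5 were lower, and the median was 0.08. Dusp1 passed 2-fold and Dusp2 differed by 0.48, while Dusp6, the ERK phosphatase, differed by 0.08 and Dusp5, another ERK phosphatase, by -0.51. The targets of YAP and SRF, which follow cell shape and serum, had a median of -0.02 over 15 genes.

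Txnip was higher at 15 mM glucose without pyruvate. Its signal was 550.3 and 1232, and both of its probes gave similar differences (1.15 and 1.36), the mean being 1.26 or 2.39-fold. With pyruvate the signals were 722 and 669.9 and the difference was 0.05. The lowest of the 4 arrays was thus [Glc 5 mM/Pyr (-)], and the signals with pyruvate lay between both arrays without it. The Txnip promoter is shown for its paired carbohydrate response element, the site of MondoA and ChREBP, given in capitals. It spans chr3:96557707-96557956 on the plus strand of GRCm38.p6, and the pair starts at -85.
Txnip: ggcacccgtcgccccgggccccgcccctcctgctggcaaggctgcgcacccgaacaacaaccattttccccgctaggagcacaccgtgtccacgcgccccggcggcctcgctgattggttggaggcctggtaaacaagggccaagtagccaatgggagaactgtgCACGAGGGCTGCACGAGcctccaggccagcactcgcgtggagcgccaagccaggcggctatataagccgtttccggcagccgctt

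The pair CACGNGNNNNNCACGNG, searched on both strands, was present in 14 of the 21254 promoters (0.0659%). Of the 8524 genes over 200 with a promoter in the table, 8 had it (0.0939%). It occurred in 1 of the 16 higher genes, which was Txnip, the gene for which the pair is shown. The remaining genes of this group were less uniform. Arrdc4, an arrestin relative of Txnip and also a MondoA target, went from 607 to 789 (0.47), but its probes disagreed (0.26 and 0.68) and the brighter gave 0.26. Arrdc2 went from 777 to 1198 (0.72, probes 0.70 and 0.74). Mlxipl itself was lower (633 and 406, -0.55), and Klf10 was lower as well. Over the 7 genes with a signal over 200 the median was 0.22, with 5 above 0 and 2 below.

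Ankrd37 had a difference close to that of Fos. This ankyrin repeat gene is a target of the hypoxia-inducible factor HIF-1. Its signal was 267 at 5 mM and 1315 at 15 mM glucose without pyruvate, a difference of 2.39 or 5.24-fold, against 166 and 159 with pyruvate (0.10). The other HIF-1 targets did not reach 2-fold. Of the 14 genes over 200, 13 were above 0 (58.9% over all genes), with a median of 0.15, but only Adm, which encodes the vasodilator peptide adrenomedullin, also passed 1.5-fold (549 and 828, 0.69). Vegfa, the endothelial growth factor, differed by 0.21, Bnip3, a mitophagy receptor, by 0.26, and Slc2a1, the glucose transporter GLUT1, by 0.09. Hif1a, the factor itself, was lower at -0.27 without pyruvate and at -0.46 with it.

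Fgf18 showed the largest difference among the genes over 200. It encodes a secreted fibroblast growth factor. The signal was 114 at 5 mM and 610.2 at 15 mM glucose without pyruvate (2.52, 5.72-fold), and its probes gave 2.10 and 2.93. With pyruvate the signals of 76.8 and 70.4 were both low and differed by 0.04. Rasl11b, a small GTPase of the Ras family, followed with 513 and 1836 (1.93), against 430.2 and 419 with pyruvate (0.12). Gzmm, a granzyme otherwise known from cytotoxic lymphocytes, had 421 and 1441 (1.87), against 273 and 301 (0.30). In Fgf18, Rasl11b and Gzmm alike, the array of 15 mM glucose without pyruvate stood above the other 3.

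The remaining genes past 2-fold upwards included regulators of signalling and transcription. Rgs2, which limits signalling by G proteins, went from 284 to 615 (1.21), although 1 of its probes gave 0.95 and the other 1.47. Cebpd, a factor of the C/EBP family known from acute-phase and adipogenic responses, went from 5698 to 10734 (1.01) and Pnrc1, a nuclear receptor coactivator, from 798 to 1547 (1.05). Tent5c, a poly(A) polymerase that the array lists as Fam46c, differed by 1.07, and Tcim, listed as 1810011O10Rik, by 1.28. The predicted genes Gm13272 (1037 and 2963, 1.61) and Gm13275 (813 and 2226, 1.55) also passed. Evpl, the envoplakin gene of the epidermal envelope, had 97.6 and 241 (1.40). Rgs2, Cebpd, Pnrc1, Tent5c, Tcim and Evpl were under 2-fold in at least 1 other processing, with lowest values of 0.79, 0.81, 0.85, 0.87, 0.91 and 0.97 in that order.

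Among the chaperones, Hspa1a, the stress-inducible HSP70, was higher at 15 mM glucose without pyruvate (81.3 and 225, 1.56) and not with it (75.4 and 63.5, -0.09). Its co-chaperone Dnajb1 went from 23729 to 36166 (0.70). The remaining chaperones differed little, so that the median over 14 genes was 0.13, with Hspa8 at 0.12, Hsph1 at 0.13 and the transcription factor Hsf1 at -0.05.

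The stress arm of ATF4, the factor translated when ribosomes are restrained by the integrated stress response, had all 15 of its genes with a signal over 200 above 0. Of them 10 were genes of at most 7.58 kb, a length at which 85.4% of protein-coding genes over 200 were above 0. The list had a median of 0.34 against 0.08 with pyruvate, and 4 passed 1.5-fold, but none passed 2-fold. The 4 were Gdf15, a stress cytokine (137 and 243, 0.92), Ddit4, an inhibitor of mTORC1 (17203 and 30299, 0.91), Ppp1r15a, a subunit of the eIF2α phosphatase (14190 and 22912, 0.78), and Atf4 itself (0.64). Trib3 (0.51), Chac1 (0.50) and Ddit3 (0.40) followed. The amino acid arm of the same factor did not share this. Its 16 genes had a median of 0.04, with Asns and Phgdh, enzymes of asparagine and serine synthesis, both at 0.01, and Slc7a11, the cystine transporter, at -0.41. The aminoacyl-tRNA synthetases had a median of 0.04 over 16 genes. The unfolded protein response of the endoplasmic reticulum had a median of 0.10 over 15 genes, with Dnajb9 (0.57) and Herpud1 (0.50) highest and the chaperone Hspa5 at 0.16.

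Genes of p53 and growth arrest had a median of 0.22 over 15 genes, 13 of them above 0 (58.9% over all genes), and 8 of the 15 were genes of at most 7.58 kb. Btg2 passed 2-fold and Gadd45a, a stress sensor of cell cycle arrest, was at 0.78, whereas Cdkn1a, the p21 gene, was at 0.22 and Zmat3 was lower at -0.54. The feedback genes and cytokines of NF-kB had a median of 0.11 over 16 genes, with Cxcl10, an interferon-induced chemokine, at 0.91 (338 and 596) and Nfkbia, the inhibitor of NF-kB, at 0.60. Id2 (0.69), Id4 (0.52) and Id3 (0.48), which are BMP targets, were above the median of their group of 13 (0.06).

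**Figure D3:**
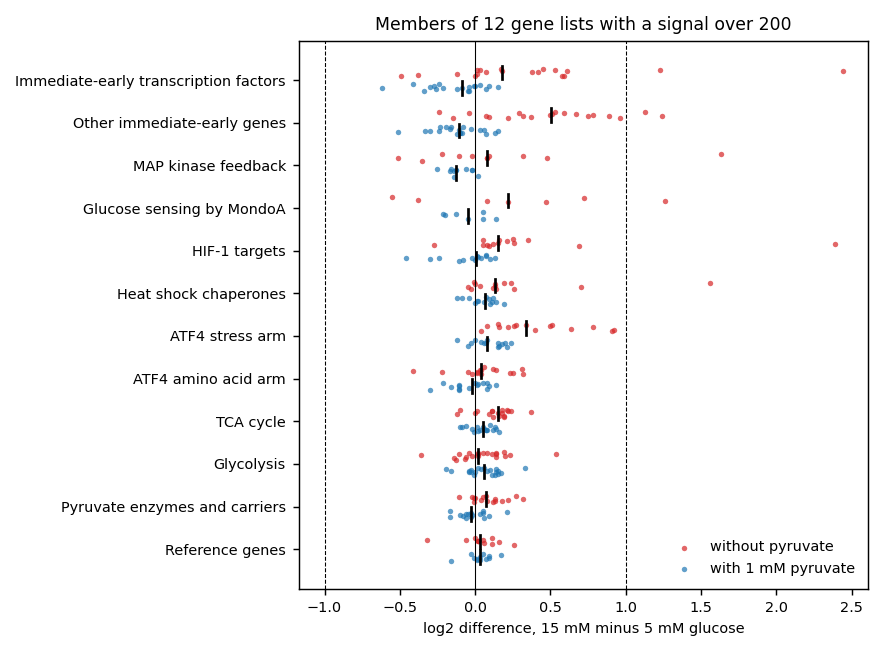
Difference between 15 mM and 5 mM glucose without pyruvate (log2) in red and with pyruvate in blue (log2), for the members with a signal over 200 of 12 gene lists, 1 point for each gene, with the median of each list as a black bar and 2-fold as dashed lines. Without pyruvate the medians of the other immediate-early genes (0.51) and of the stress arm of ATF4 (0.34) lie furthest to the right, and that of glycolysis (0.02) lies near 0.

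The genes of glucose metabolism differed little. The glycolytic genes had a median of 0.02 over 21 genes without pyruvate and 0.06 with it, and ranged from -0.36 for Pfkfb1, a regulator of phosphofructokinase, to 0.54 for Aldoc, a brain-type aldolase. Hk1 and Hk2, the hexokinases that trap glucose, differed by -0.06 and -0.13, and Gapdh, measured by 9 probes, some of which share bases with other gene names, by 0.11. The glucose transporters had a median of 0.02 over 6 genes. The enzymes and carriers of pyruvate had a median of 0.08 over 16 genes, with the mitochondrial pyruvate carriers Mpc1 (0.32) and Mpc2 (0.27) highest. The TCA cycle had 16 of 18 genes above 0, compared with 58.9% of all genes over 200, with a median of 0.16 and a range from -0.12 for Ogdh to 0.37 for Sdhd. None of these 4 groups had a member past 1.5-fold over 200, and with pyruvate the TCA cycle had a median of 0.06.

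The collateral pathways of glucose, such as the polyol, hexosamine and pentose phosphate pathways, had a median of 0.12 over 17 genes, with aldose reductase, Akr1b3, at 0.15 and transketolase, Tkt, at -0.01. The genes of PARP and NAD metabolism had a median of 0.08 over 15 genes, and Parp1 itself was at -0.12. The antioxidant targets of NRF2 had a median of 0.01 over 19 genes, with Hmox1 at -0.04 and Nqo1 at 0.09. FoxO targets (0.06), cholesterol synthesis (0.03), the circadian clock (-0.05) and the neurotrophic factors (0.05) also lay near the median of all genes, as did the reference genes (0.03 over 12), among which Actb was at 0.05. Among the Schwann cell markers the median was -0.05 over 10 genes. The markers of fibroblasts (-0.07 over 5 genes), macrophages (0.00 over 4) and neurons (-0.14 over 2) had medians near or below 0, although Cd68, a lysosomal macrophage marker, went from 1258 to 1817 (0.62). Over the 4 neuron markers measured at any signal the median was 0.71. Of these, Nefl (24.5 and 53.7, 1.22) and Rbfox3 (20.2 and 42.7, 1.17) were higher by 2-fold, both at dim signals. The neuronal Snap25 (-0.52) and the macrophage Itgam (-0.16) share runs of bases with probes of other genes and are uncertain, and the only endothelial marker over 200, Kdr, had 5358 and 5020. No member of any of the 31 lists with a signal over 200 was lower by 2-fold. Scaling to the spike-in RNA instead of the 75th percentile moved the median of all genes from 0.03 to -0.16, which shifted every difference by the same step. List medians above 0 but smaller than that step were below 0 under that scaling, while those of the other immediate-early genes, the ATF4 stress arm, MondoA and p53 stayed above 0.

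The genes that were lower at 15 mM glucose were of other kinds. Only 9 of the 72 were protein-coding genes held by RefSeq, compared with 22 of the 34 higher genes. A further 12 were long noncoding RNAs, and 51 had names that RefSeq does not hold. Of the 10510 protein-coding genes over 200, 0.209% were higher and 0.0856% lower by 2-fold. Of the 274 long noncoding RNAs 2 were higher and 12 lower (4.38%), although their median was 0.07, and of the 381 names not held by RefSeq 8 were higher and 51 lower (13.4%), with a median of -0.20. With pyruvate, the medians of these classes were 0.01, -0.04 and -0.08. Of the names not held, 20 lay between probes of a protein-coding gene on the same strand, and 7 of these (35.0%) were lower by 2-fold with a median of -0.60, against 44 of the 361 others (12.2%).

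Malat1 and Neat1, neighbouring nuclear RNAs that are retained in speckles and paraspeckles, were lower at 15 mM glucose. Malat1 had 3423 and 1244 without pyruvate (-1.37) and 3929 and 2700 with it (-0.38). Neat1 had 17093 and 7104 without pyruvate (-1.17) and 20795 and 15116 with it (-0.30). In both, the array of 15 mM glucose without pyruvate was the lowest of the 4, and the array of 15 mM glucose with pyruvate was next. Each rests on a single probe, shown here with that of the U3 small nucleolar RNA Rnu3b1, which guides processing of ribosomal RNA precursors and had 7941 and 19699 without pyruvate (1.40) and 6410 and 7070 with it (0.30). The positions are those of the array annotation on mm9, namely chr19:5795713-5795772 on the minus strand for Malat1, chr19:5842564-5842623 on the minus strand for Neat1 and chr11:87285025-87285084 on the plus strand for Rnu3b1. The probes are 60 bases long and are given 5′ to 3′, with no part marked.
Malat1: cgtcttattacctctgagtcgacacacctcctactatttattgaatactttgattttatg
Neat1: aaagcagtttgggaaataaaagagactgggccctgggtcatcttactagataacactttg
Rnu3b1: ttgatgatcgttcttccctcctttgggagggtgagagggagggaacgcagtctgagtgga

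The lowest of all genes over 200 was the noncoding RNA 8430431K14Rik, with 367 at 5 mM and 74.0 at 15 mM glucose (-2.22) against 460.0 and 319 with pyruvate (-0.37). The noncoding RNA 8030453O22Rik had 1316 and 437 (-1.50, or -0.67 with no filter on dim probes), 1700109K24Rik had 1389 and 561 (-1.22), and 9130020K20Rik had 2650 and 1113 (-1.16). Lincpint, a p53-induced noncoding RNA, had 823 and 372, and its 3 probes all lay between -1.11 and -0.95, although it was at -0.93 under normexp. Kcnq1ot1, the antisense transcript that silences an imprinted domain, stayed just under 2-fold (751 and 374, -0.91), with probes at -0.85 and -0.98. Only 1700003G18Rik (87.4 and 252, 1.62) and 4921531C22Rik (415 at 5 mM, difference 1.51) went the other way past 2-fold among the long noncoding RNAs.

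The 31 lists held none of the protein-coding genes lower by 2-fold. Whether these genes shared a function could therefore not be seen from the lists. They included Pou5f2, a POU-domain factor of the testis (383 and 134, -1.42), L1td1, an RNA-binding protein derived from a LINE-1 element (368 and 145, -1.25), and Prdm10, a zinc finger factor, at -1.18 (253 and 105) over 2 probes that disagreed, 1 of them being at -0.35. Scn3b, a sodium channel β subunit, had 1735 and 778 without pyruvate (-1.06) but 1238 and 1468 with it (0.41). Gpx2, a glutathione peroxidase, had 1562 and 732, and Tenm3, a teneurin adhesion receptor in a gene of 1297160 bases, was at -1.06 with probes at -1.56 and -0.57. L1td1, Prdm10, Gpx2 and Tenm3 were under 2-fold in at least 1 other processing, at -0.98, -0.35, -0.97 and -0.66.

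The difference varied with the length of the gene. The protein-coding genes over 200 with a RefSeq length were divided into 5 groups of about 2102 genes. The median difference without pyruvate was 0.15 in genes up to 7.58 kb, 0.09 up to 16.1 kb, 0.05 up to 29.3 kb, -0.01 up to 61.9 kb and -0.11 in the longest genes, of up to 1612 kb. The share of genes above 0 was 85.4%, 74.0%, 64.9%, 45.7% and 27.1% in the same order. With pyruvate the medians were 0.05, 0.03, 0.00, -0.01 and -0.02. Of the 22 protein-coding genes higher by 2-fold, 19 were in the shortest group. At 1.5-fold, the shortest group held 59 higher and 15 lower genes and the longest 3 higher and 36 lower genes. The groups also differed in brightness, with a median signal of 3420 in the shortest and 1338 in the longest, so the medians were taken again within 3 groups of genes by signal. They ran from 0.13 to -0.14 among the dim genes, from 0.15 to -0.10 in the middle and from 0.16 to -0.07 among the bright genes.

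**Figure D4:**
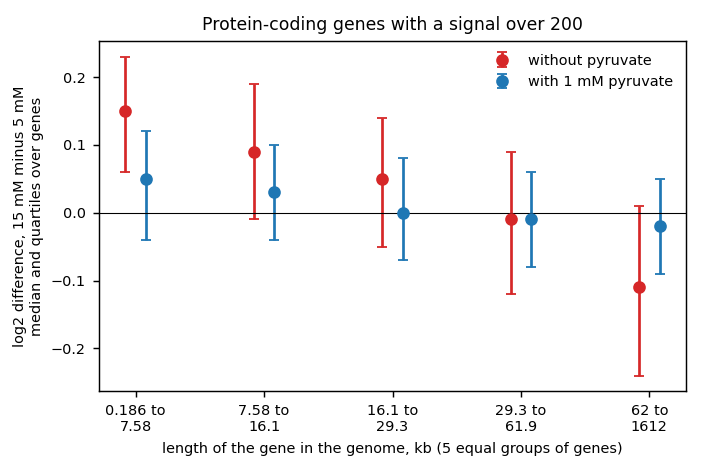
Median difference between 15 mM and 5 mM glucose (log2) in 5 groups of protein-coding genes of increasing length, with the quartiles over genes as bars, without and with pyruvate. Without pyruvate the medians step down from 0.15 to -0.11, and with pyruvate from 0.05 to -0.02.

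Genes with several probes allowed the position within the gene to be examined. In 1380 genes with probes at least 1 kb apart, the difference at the 5′ probe minus that at the 3′ probe had a median of 0.02. It was 0.03 in the 929 genes with probes up to 10 kb apart and -0.05 in the 451 genes with probes further apart, of which 41.0% were above 0, and with pyruvate the median of those 451 was 0.02. Since 16 of the 20 other immediate-early genes belonged to the shortest group, each list was also set against the median of its own length group. The other immediate-early genes were then at 0.39, with 15 of 20 above 0, the immediate-early transcription factors at 0.12 with 11 of 19, the ATF4 stress arm at 0.22 with 14 of 15, the TCA cycle at 0.10 with 15 of 18 and the HIF-1 targets at 0.12 with 13 of 14, whereas the reference genes were at -0.07.

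In the pair with pyruvate, the genes past 2-fold without pyruvate had smaller differences, although with 1 array per condition this contrast was not tested. These genes were picked for their large differences without pyruvate, so smaller ones in any other pair would follow from that choice alone. Their values with pyruvate therefore cannot show an effect of pyruvate. The 34 higher genes had differences between -0.62 and 0.30 with pyruvate (median 0.04), with 20 above 0 and 14 below. The 72 lower genes had differences between -0.69 and 0.41 with pyruvate (median -0.17), with 67 below 0. Over all 11339 genes over 200 with pyruvate, 51.6% were above 0 and 26 passed 1.5-fold. Of the 106 genes, 2 passed 1.5-fold with pyruvate. Of 11484 genes measured on all 4 arrays with a signal over 200 on any of them, none passed 2-fold in both pairs, in the same or in opposite directions. Since only 2 of 11339 genes over 200 (0.0176%) passed 2-fold with pyruvate, hardly any overlap was possible. This count therefore cannot show whether the pairs agreed.

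**Figure D5:**
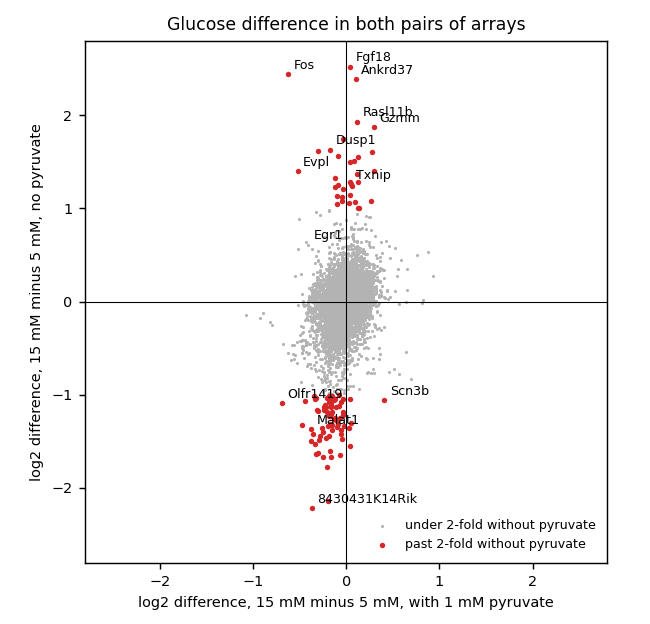
Difference between 15 mM and 5 mM glucose without pyruvate (log2, vertical axis) against the same difference with 1 mM pyruvate (log2, horizontal axis), 1 point for each gene over 200, with the genes past 2-fold without pyruvate in red. The 34 genes past 2-fold upwards spread from -0.62 to 0.30 on the horizontal axis, and 67 of the 72 past 2-fold downwards lie left of 0 there.

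Some genes were well above background on only 1 of the 2 arrays, namely 394 at 15 mM and 621 at 5 mM glucose. None of them had a signal over 200, so each rests on a dim spot. The highest lower bounds were at least 11.9-fold higher at 15 mM glucose for the olfactory receptor gene Olfr568 (signal 111), at least 11.8-fold lower for the defensin gene Defb6 (128 at 5 mM), at least 10.5-fold higher for Fcrl6 (96.9), at least 10.4-fold higher for Ampd1 (96.7) and at least 10.4-fold lower for Hoxc11 (112 at 5 mM). For these genes the dim array was given the lowest signal that was still well above background on it, or the signal of the spot itself where that was higher.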

How the data were processed

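RNA of IMS32 cells was labelled with Cy3 and hybridised to 1-colour Agilent arrays, 1 array for each of the 4 conditions, all on 1 slide. Per the file headers, the authors extracted spot intensities with Agilent Feature Extraction 11.5.1.1, and the deposited processed signal is a background-corrected intensity. The deposited value table of the series holds, as a linear ratio, the same signal divided by a constant for each array (all features matched within 1e-05), and the authors' further settings are not given in the sources used here. Probe positions refer to mm9. Here, control and outlier spots were left out, spots of a probe were averaged, log2 signals were centred on each array's 75th percentile over all non-control probes, and the probes of a gene well above background on both arrays were averaged. Gene names, lengths and promoters were taken from RefSeq (GRCm38.p6), which held 22592 of the 31093 names and 10948 of the 11329 genes over 200. With 1 array per condition no test was run. A difference of 2-fold was used as the rule of size. Genes named were the 12 highest and 12 lowest held by RefSeq with a signal over 200, the members of each list past 2-fold and the 3 largest differences of each list, a chosen set (Txnip, Arrdc4, Fos, Egr1, Gapdh, Hk1, Hk2, Akr1b3, Parp1, Actb), and the 5 largest bounds; the other genes named were chosen after their values were seen. The members and lists were chosen with earlier results of these data known. The number of arrays limits the precision. The steps were tested on simulated data. Scripts ran in Python 3.11.15 (pandas 2.3.3, numpy 2.4.6), and limma 3.58.1 in R 4.3.3 served for the alternatives of background correction and normalization. Other scalings, filters, thresholds and signal minimums were tried as alternatives. Some single genes are not reported here.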

Additional observations from a re-analysis of the deposited data

Results flagged for a closer look

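Genes past 2-fold without pyruvate with a name held by RefSeq were singled out where they differed the opposite way with pyruvate by more than 0.18. This is 2 times the spread of a difference among the spots of probes over 200. Fos was at 2.44 without pyruvate and at -0.62 with it, 1700003G18Rik at 1.62 and -0.30, Evpl at 1.40 and -0.52, and Scn3b at -1.06 and 0.41. The dim genes 1700003G18Rik and Evpl had signals below 200 on 3 of the 4 arrays. At such signals the spread of a difference was 0.25, close to the size of the -0.30 of 1700003G18Rik with pyruvate. The difference between the pairs was not tested in any of them, since each condition had 1 array.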

How the results depend on the processing

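No paired analysis was possible because each condition had 1 array, and for the same reason no replicate could be left out. Among 230 results and 2567 values, 357 moved by more than the spot spread or, for counts, by over 1.5 times. Of the 106 genes past 2-fold, 1 changed sign, being at 0.25 under both looser filters, and of 31 list medians taken relative to all genes 6 changed sign under at least 1 alternative, as did 13 of 87 named genes under 2-fold. The 676 probes past 2-fold became 113 under normexp background correction, 1759 when a probe had to be well above background on only 1 array, 2752 with no filter and 2054 at 1.5-fold. The 106 genes over 200 became 67 under normexp, 325 at 1.5-fold, 160 over a signal of 100 and 69 over 400. The 2 genes with pyruvate became 11 under spike-in scaling, 1 under normexp, 6 and 5 under the looser filters, 26 at 1.5-fold, 25 over 100 and 1 over 400. The 51 lower names not held by RefSeq became 81 under spike-in scaling and 33 under normexp. Spike-in scaling also moved the split of higher and lower probes from 266 and 410 to 172 and 674, and that of genes from 34 and 72 to 24 and 115. Relative to all genes, the ATF4 stress median was 0.21 under quantile and 0.21 under cyclic loess normalization. The median of the neuron markers at any signal was 0.26 (normexp, 4 genes), 0.21 (all 4 arrays, 3 genes) and -0.34 (no filter, 6 genes). That of the endothelial markers at any signal was -0.18 (normexp, 2 genes), -0.54 (1 array, 3 genes) and 0.03 (no filter, 5 genes). The comparison of genes over 200 with their own length group was added after seeing the data. There, MAP kinase feedback was at -0.07, MondoA genes at 0.07, the unfolded protein response at -0.04 and NF-kB at 0.01. The neuron markers were at -0.13 (2 genes) and the only endothelial marker over 200, Kdr, at 0.01. The median of short minus long genes, also added after seeing the data, stayed between 0.22 and 0.26. Of the 106 genes past 2-fold, checked one by one after seeing the data, 63 stayed past it under every alternative that changed the values, 39 were under it with normexp, 10 with spike-in scaling, 7 with quantile normalization and up to 4 under each other alternative. The cause of these shifts was not tested.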

Other observations

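The host genes of small nucleolar RNAs, a group chosen after their values were seen, were mostly higher at 15 mM glucose without pyruvate. Of 10 with a signal over 200, 8 were above 0 (58.9% over all genes), with a median of 0.44 against 0.02 with pyruvate. Their genes were between 1663 (Snhg10) and 4095 bases (Snhg18) long. Of the protein-coding genes over 200 of at most 7.58 kb, 85.4% were above 0. Snhg1 went from 3971 to 6484 (0.80), Snhg5 was at 0.69, Zfas1 (listed as 1500012F01Rik) at 0.65, Snhg12 at 0.58, Snhg6 at 0.45 and Snhg3 at 0.43. Snhg18 (0.24) and Gas5 (0.11) differed less, and Snhg10 (-0.04) and Snhg7 (-0.07) lay below 0. Among other noncoding RNAs, Gt(ROSA)26Sor was at 0.78, Sox2ot at -0.74 and Mir22hg at -0.66. These are values of 1 array per condition with no test.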
